A study of Mus musculus with 2 samples.

Results

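Mural cells are the smooth muscle cells and pericytes that wrap blood vessels, and 9 genes commonly used to recognise them are described here in cultured perivascular cells (PVCs) of the mouse aorta. The genes were Cspg4, Rgs5, Rgs4, Anpep, Mcam, Abcc9, Tbx18, Cd248 and Ndufa4l2. They were taken by name, with earlier results of these data known, and all 9 were found among the 20211 gene symbols in the tables. RNA-seq had been made from PVCs of 1 WT (wild type) and 1 Kai1 KO culture, both on the C57BL/6 strain background and both grown in DMEM with fetal bovine serum. Kai1 is the older name of Cd82, a membrane protein of the tetraspanin family. The study's purpose was to learn how Kai1 in cells around vessels affects angiogenesis. The sources used here do not give the design of the Kai1 KO allele, how many mice each culture came from, or the age and sex of those mice. The mice that the study purchased were adults of either sex.

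Pericytes sit in the basement membrane of capillaries, where they contact endothelial cells and help to keep the vessel stable, and smooth muscle cells form the contractile layer of larger vessels. No single gene marks all mural cells. The usual panel combines surface proteins, regulators of G protein signalling, ion channel subunits, transcription factors and mitochondrial proteins, and its members differ between vascular beds and are often lost when cells are placed in culture. Several of the surface markers are also made by fibroblasts of the vessel wall.

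Levels are in RPKM, reads per kilobase of transcript scaled to the number of mapped reads, which corrects for gene length and allows levels to be compared between genes. Each genotype has 1 library, so animals, cultures and library preparations differ along with genotype, and no test between genotypes could be made. Genes whose mean over both libraries was 1 RPKM or more, 10068 in all, are called expressed genes below. The log2 ratio is Kai1 KO over WT after 0.1 RPKM was added to each value, which makes the difference of a low gene look smaller. Numbers of reads were not in the tables and were estimated from the smallest steps between low RPKM values, which gave about 29600000 reads for WT and 26700000 for Kai1 KO. The 95% intervals given with levels and ratios come from these estimated reads, without the added 0.1, and cover counting error only. In RNA from a whole culture, fewer cells of a type and less RNA per cell cannot be told apart.

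The targeted gene, Cd82, was at 12.8 RPKM in WT and 2.62 in Kai1 KO, a log2 ratio of -2.25. The Kai1 KO library thus held 20.5% of the WT level, from about 114 reads against 616, in the direction of its label. Which exons those reads came from was not analysed here. Ddx3y, Eif2s3y, Kdm5d and Uty, genes of the Y chromosome, had RPKM between 0.479 and 6.56 in the WT library and were all listed at 0 in the Kai1 KO library. Genotype and the sex of the animals therefore cannot be told apart in any value below.

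The label of the cells was compared with genes that define mural cells. Pdgfrb, the receptor through which vessels recruit mural cells, was well expressed, at 44.7 RPKM in WT and 31.6 in Kai1 KO. Acta2, smooth muscle actin, was among the most abundant transcripts, at 3823 and 2580 RPKM. Several genes most typical of capillary pericytes, named here after their values were seen, were at or near 0. Rgs5 and Abcc9 were below 0.3 RPKM in both libraries. Vtn, P2ry14 and Atp13a5 were listed at 0 in both, and Higd1b was at 0.191 RPKM in the WT library and listed at 0 in the Kai1 KO library. Of 57 other mural genes read below, 27 were expressed genes. Among them were Cox4i2, at 2.25 RPKM in WT and 0.428 in Kai1 KO, and Foxs1, at 36.1 and 24.6. These 2 were also named after their values were seen. The collagen genes of fibroblasts were abundant as well, with Col1a1 at 924 and 534 RPKM. Mural markers were thus split. Pdgfrb, Cd248, Cspg4, Foxs1 and contractile genes were present, whereas Rgs5, Abcc9, Vtn, P2ry14, Atp13a5 and Higd1b were at traces or listed at 0. The cells are called PVCs here as in the labels.

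The 9 markers covered a wide range of levels. In the WT library the order was Cd248, Cspg4, Ndufa4l2, Mcam, Tbx18, Rgs4, Anpep, Rgs5 and Abcc9. The counting intervals overlapped between Ndufa4l2 and Mcam, between Tbx18 and Rgs4 and between Rgs5 and Abcc9, so these neighbours were not separated. In the Kai1 KO library Cd248 and Cspg4 were again first and second, followed by Tbx18, Rgs4, Ndufa4l2, Anpep, Mcam, Rgs5 and Abcc9. Every neighbouring pair from Rgs4 to Rgs5 in that order had overlapping intervals. Ndufa4l2 moved from rank 3 to 5 and Mcam from 4 to 7, whereas Tbx18 moved from 5 to 3. The median over the markers was 1.60 RPKM in WT and 0.493 RPKM in Kai1 KO. A level of 1 RPKM or more was reached by 6 of the 9 in WT and by 3 in Kai1 KO.

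**Figure D1:**
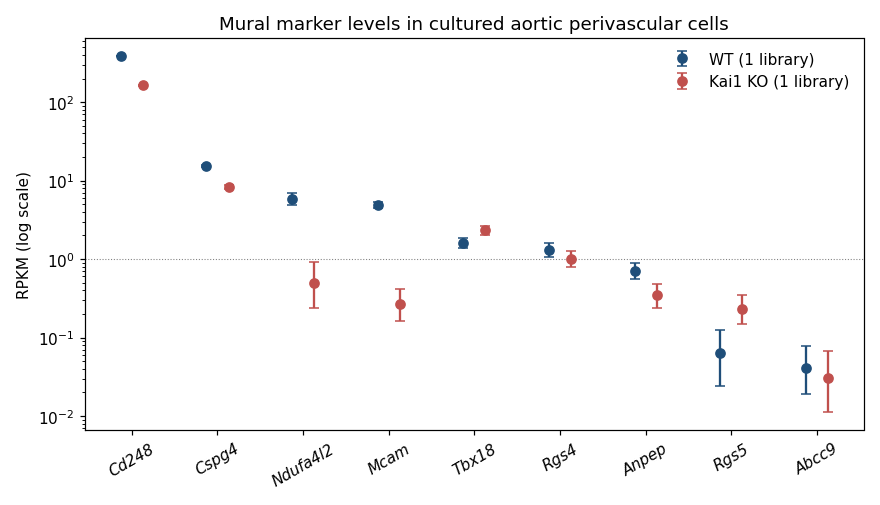
Level of each of the 9 mural markers in RPKM, on a log axis, with the WT library in blue and the Kai1 KO library in red; points are the values and bars their 95% counting intervals. Cd248 stands far above the others at 386 and 163 RPKM, and the points of Ndufa4l2 and Mcam are the farthest apart.

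Of the 9 markers, 7 were lower and 2 higher in the Kai1 KO library. By a difference of more than 2-fold, 3 of the 9 were lower (Mcam, Ndufa4l2 and Cd248) and 1 was higher (Rgs5). Among all 20211 symbols, 9.29% were lower and 5.96% higher by the same measure. The lower share of the markers was above that background. No test was made, since each genotype had 1 library and the markers had been chosen with results known. The single higher gene rested on very few reads. As expressed genes counted 6 of the 9, without Rgs5, Anpep and Abcc9, and 3 of them were lower and 0 higher. Of all expressed genes, 7.81% were lower and 7.98% higher. The median log2 ratio was -0.86 over the 9 markers and 0 over all symbols. Over the 6 expressed markers it was -1.07, against 0.08 over all expressed genes. The counting interval of the ratio lay below 0 for 5 markers and above 0 for 2, Tbx18 and Rgs5. It held 0 for the remaining 2, Rgs4 and Abcc9.

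**Figure D2:**
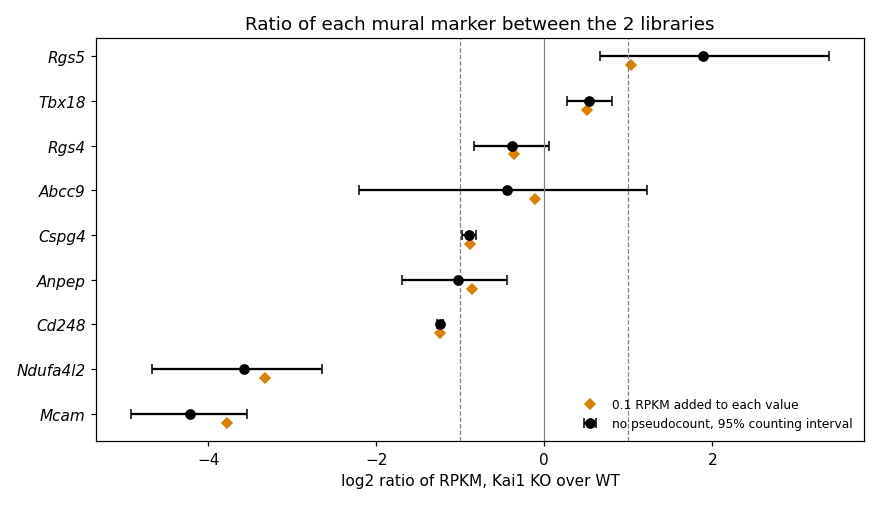
Log2 ratio of Kai1 KO over WT for each marker, as black points with 95% counting intervals without a pseudocount and as orange diamonds with 0.1 RPKM added; dashed lines mark 2-fold. Mcam and Ndufa4l2 lie near -4 and -3.5, whereas the wide bar of Abcc9 crosses 0.

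The start regions of 4 markers are shown because they represent the main patterns among the genes for which the sequence was at hand. Cspg4 was lower in the Kai1 KO library and Tbx18 higher. Rgs5 and Rgs4 are chromosome neighbours whose ratios had opposite signs, but the interval of Rgs4 held 0 and Rgs5 had about 7 and 24 reads. Each region is the 250 bases before the RefSeq start (promoter windows of the GRCm38.p6 set, each placed by a single exact match on NCBI37), written 5′ to 3′ on the strand of the gene, and such a window was at hand for 7 of the 9 markers. Capitals mark 3 motifs, read on either strand, and no capitals overlap here. The GC box, bound by factors of the Sp family, has the letters GGGCGG. The TATA box, which places the start of transcription, was searched as TATAAA. The CCAAT box, bound by the factor NF-Y, was searched by the letters of its name.
Cspg4 (chr9:56712661-56712910, plus strand): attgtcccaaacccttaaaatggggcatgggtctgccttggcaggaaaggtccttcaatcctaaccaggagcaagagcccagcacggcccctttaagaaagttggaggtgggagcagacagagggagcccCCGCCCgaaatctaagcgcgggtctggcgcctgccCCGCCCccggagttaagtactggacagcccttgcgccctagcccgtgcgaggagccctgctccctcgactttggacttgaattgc
Tbx18 (chr9:87626096-87626345, minus strand): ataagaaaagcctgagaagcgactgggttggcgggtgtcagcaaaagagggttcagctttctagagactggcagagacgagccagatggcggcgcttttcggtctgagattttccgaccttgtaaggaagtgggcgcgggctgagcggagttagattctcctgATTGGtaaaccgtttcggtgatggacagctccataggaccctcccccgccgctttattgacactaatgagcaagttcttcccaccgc
Rgs5 (chr1:171585382-171585631, plus strand): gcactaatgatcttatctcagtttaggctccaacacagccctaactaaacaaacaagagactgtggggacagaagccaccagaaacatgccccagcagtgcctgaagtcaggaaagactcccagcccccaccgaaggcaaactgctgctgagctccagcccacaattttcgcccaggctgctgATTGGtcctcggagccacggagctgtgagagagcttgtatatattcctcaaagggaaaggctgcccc
Rgs4 (chr1:171677774-171678023, minus strand): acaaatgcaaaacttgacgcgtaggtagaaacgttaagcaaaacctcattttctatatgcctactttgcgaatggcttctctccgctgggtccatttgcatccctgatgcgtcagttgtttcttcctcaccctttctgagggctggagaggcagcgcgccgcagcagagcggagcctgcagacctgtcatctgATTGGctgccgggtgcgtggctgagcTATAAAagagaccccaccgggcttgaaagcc

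The window of Cspg4 held 2 GC boxes and had 60.4% G and C. Those of Rgs5 and Rgs4 each held 1 CCAAT box and had 53.6%, and that of Rgs4 also held a TATA box near its end. The window of Tbx18 held 1 CCAAT box and, not marked by capitals, 1 match to TGGGAA, the core of the RBPJ site through which Notch acts. Anpep (3 GC boxes) and Abcc9 (1 GC box and 1 TGGGAA) had richer windows, with 72.8% and 66.8% G and C against a median of 52.4% over all 32851 windows. The window of Mcam lies within annotated exons and is not shown. It held 5 GC boxes and 1 cAMP response element (TGACGTCA), a motif present in 1.55% of all windows. A GC box was present in 32.7% of all windows, a CCAAT box in 33.8%, TATAAA in 12.4% and TGGGAA in 21.6%. The CArG box, bound by serum response factor in smooth muscle genes, was found in 1.47% of all windows and the hypoxia response core ACGTG in 16.6%. Neither was found in the 7 marker windows at hand. Cd248 and Ndufa4l2 had no window and were not searched. These motifs were chosen after the windows had been seen, and a match describes letters, not binding.

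Among the surface markers, Cd248 (endosialin), a C-type lectin receptor of perivascular cells and fibroblasts that binds matrix proteins, had the highest level. Its level was 386 RPKM in WT and 163 in Kai1 KO. That is 2.37-fold lower, with a counting interval of 2.31 to 2.42, a log2 ratio of -1.24 and about 26992 against 10283 reads. Cd248 is a gene of 1 exon and 2560 bases (chr19:5068078-5070637, plus strand, NCBI37). It was higher than 98.5% of all symbols in WT and 96.9% in Kai1 KO, and it made up 92.8% and 92.6% of the markers' summed RPKM, which was 416 and 176. Without Cd248 the sum was 29.9 and 12.95 RPKM.

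Cd248 is one of 4 type XIV C-type lectins, of which the other three are best known from endothelium. Thrombomodulin (Thbd), which binds thrombin, had 22.4 RPKM in WT and 16.1 in Kai1 KO, a log2 ratio of -0.47. Cd93 was at 0.181 and 0.0494 RPKM. Clec14a was at 0.0156 RPKM in WT and listed at 0 in Kai1 KO. Cd248 and Thbd were the 2 expressed genes of this family, and of them Cd248 alone differed by more than 2-fold. Over all expressed genes 7.81% were lower and 7.98% higher by that measure.

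Cspg4, the core protein of the NG2 proteoglycan, is the classical surface antigen by which pericytes are stained. It had 15.4 RPKM in WT and 8.27 in Kai1 KO. The Kai1 KO level was 53.7% of WT, a log2 ratio of -0.89 with an interval of -0.98 to -0.81 from about 3579 and 1734 reads. The difference exceeded counting error and stayed short of 2-fold with the libraries as deposited. The gene lies at chr9:56712911-56747677 on the plus strand (NCBI37), and its transcript is 8050 bases long. Of the 6 chondroitin sulphate proteoglycans listed, only Vcan (versican, a large proteoglycan of the matrix) was also an expressed gene, and it was higher in the Kai1 KO library, at 19.5 RPKM against 7.15, a log2 ratio of 1.44.

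Mcam (CD146), an adhesion molecule of the immunoglobulin superfamily made by pericytes, smooth muscle and endothelium, had the lowest ratio of the 9. Its level was 4.90 RPKM in WT and 0.264 in Kai1 KO. The level was 18.6-fold lower, with an interval of 11.7 to 30.2, and the log2 ratio was -3.78. A lower ratio was seen for 0.467% of the expressed genes. About 405 reads lay behind the WT value and 20 behind the Kai1 KO value, or about 36.1 and 1.76 if all came from the shortest annotated transcript. In WT the level of Mcam was 31.8% of that of Cspg4, and in Kai1 KO 3.19%, so the balance of these pericyte surface antigens differed between the libraries. Mcam lies at chr9:43942552-43950810 (plus strand, NCBI37). Its span from start to end shares 17 bases with a noncoding gene on the opposite strand, Gm10687. Whether exons overlap there was not analysed.

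Relatives of Mcam among adhesion molecules were read beside it. Alcam (CD166), with a mean below 1 RPKM and named after its value was seen, was at 1.21 RPKM in WT and 0.169 in Kai1 KO, a log2 ratio of -2.29 from about 209 and 26 reads. Bcam, a laminin receptor, was at 9.35 RPKM in WT and 4.17 in Kai1 KO, a log2 ratio of -1.15. Jam3, a junctional adhesion molecule, had a log2 ratio of -0.57. Esam, found in endothelial junctions, was listed at 0 in both libraries. Of the 5 genes listed, 3 were expressed, and 2 of these, Mcam and Bcam, were more than 2-fold lower, against 7.81% of all expressed genes.

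Anpep (CD13, aminopeptidase N) is a membrane peptidase used to identify brain pericytes. It was low in these aortic cells, with 0.712 RPKM in WT and 0.348 in Kai1 KO. The log2 ratio was -0.86, and the interval without a pseudocount ran from -1.69 to -0.45 on about 76 and 33 reads. The gene lies at chr7:86966689-86993096 on the minus strand (NCBI37). Of the 7 membrane peptidases listed, 1 was expressed, Lnpep (an aminopeptidase of insulin-responsive vesicles), which was at 1.94 and 1.95 RPKM.

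Rgs5 and Rgs4 are GTPase-activating proteins that switch off Gi and Gq signals, and Rgs5 is among the most specific pericyte markers in tissue. Rgs5 was at 0.0630 RPKM in WT and 0.233 in Kai1 KO. It was the only marker more than 2-fold higher, with a log2 ratio of 1.03, or 1.89 without a pseudocount, and an interval of 0.67 to 3.38. That ratio rests on about 7 and 24 reads, or about 0.981 and 3.27 if the reads came from the shorter transcript, and both levels were close to absent. Rgs4 was more abundant, at 1.31 RPKM in WT and 0.997 in Kai1 KO. Its log2 ratio of -0.36 had an interval of -0.84 to 0.05, so a difference was not detectable at this depth.

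Rgs5 (chr1:171585632-171625944, plus strand) and Rgs4 (chr1:171671608-171677773, minus strand, both NCBI37) point towards each other, with 45.7 kb between their ends and 0 other named genes in between. Their relative Rgs16, which also acts on Gi and Gq, had a much larger difference than Rgs4. Rgs16 was at 5.51 RPKM in WT and 0.947 in Kai1 KO, a log2 ratio of -2.42. Rgs2, selective for Gq and a regulator of vascular tone, went the other way, from 0.409 RPKM in WT to 1.36 in Kai1 KO, a log2 ratio of 1.52. Of the 9 R4 family genes in the tables, 3 were expressed. Both Rgs16 and Rgs3 (6.71 against 3.28 RPKM) were more than 2-fold lower, and 0 were higher. The shares over all expressed genes were 7.81% lower and 7.98% higher.

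Abcc9 encodes SUR2, the regulatory subunit of the ATP-sensitive potassium (KATP) channel of vascular muscle and pericytes. It had the lowest level in both libraries, 0.0411 RPKM in WT and 0.0303 in Kai1 KO, from about 9 and 6 reads. The interval of its log2 ratio, -2.21 to 1.22, held 0, and no difference could be seen at this depth. The span of its gene (chr6:142536382-142650794, minus strand, NCBI37) shares 312 bases with that of 5330439B14Rik on the opposite strand. Kcnj8, the pore subunit that pairs with Abcc9 in vessels, was listed at 0 in WT and had 0.791 RPKM in Kai1 KO, about 42 reads. Kcnj11 and Abcc8, the pore and regulatory subunits of the pancreatic channel, were listed at 0 in both libraries. Neither library therefore had more than traces of RNA for a regulatory subunit.

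Tbx18, a T-box transcription factor of the epicardium and of mural cells, was the marker with a higher level in the Kai1 KO library at a substantial read number. Its RPKM was 1.60 in WT and 2.31 in Kai1 KO. The log2 ratio was 0.51, with an interval of 0.27 to 0.80 on about 212 and 277 reads. Its log2 ratio was 0.03 when both libraries were scaled to Gapdh and 0.05 when both were scaled to the same sum, while the median of the expressed genes went from 0.08 to -0.41 and -0.40, so Tbx18 stayed above that median. Its gene is at chr9:87597635-87626095 on the minus strand (NCBI37). Its close relative Tbx15 was at 4.99 RPKM in WT and 3.38 in Kai1 KO, a log2 ratio of -0.55. Of the 17 T-box genes listed, 3 were expressed (Tbx18, Tbx15 and Tbx1), and 0 of them differed by more than 2-fold. Over all expressed genes 7.81% were lower and 7.98% higher by that measure.

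Ndufa4l2, a mitochondrial protein induced by hypoxia-inducible factor (HIF) that lowers respiratory chain activity, had the second lowest ratio. It was at 5.87 RPKM in WT and 0.493 in Kai1 KO. The level was 11.9-fold lower, with an interval of 6.27 to 25.4, a log2 ratio of -3.33 and about 132 against 10 reads. The gene lies at chr10:126951995-126954208 on the plus strand (NCBI37), and its span shares 14 bases with that of Shmt2 on the opposite strand. Its transcript is 960 bases long. Its relative Ndufa4, a subunit of cytochrome c oxidase, was higher in the Kai1 KO library, at 188 RPKM against 87.2, a log2 ratio of 1.11. The level of Ndufa4l2 was therefore 6.72% of that of Ndufa4 in WT and 0.262% in Kai1 KO.

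Most other HIF targets listed were closer to 0 in their ratio. Of the 21 listed, 20 were expressed, with a median log2 ratio of -0.03. By more than 2-fold, 3 of these were lower and 0 higher, against 7.81% and 7.98% of all expressed genes. Besides Ndufa4l2 the lower ones were Adm (adrenomedullin, a vasodilator peptide), at 28.8 RPKM in WT and 8.82 in Kai1 KO, and Cox4i2, a cytochrome oxidase subunit typical of lung and mural cells, at 2.25 and 0.428. The glycolytic enzymes Pgk1 and Ldha were at 408 and 374 RPKM in WT and at 642 and 588 in Kai1 KO, differences of less than 2-fold. Higd1a, a mitochondrial protein, had a log2 ratio of 0.85. Car9, with a mean below 1 RPKM and named after its value was seen, was at 0.730 RPKM in WT and 0.0639 in Kai1 KO. Its log2 ratio was -2.34, from about 39 and 3 reads. No set test was made, and the list was not shown to differ from all genes.

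**Figure D3:**
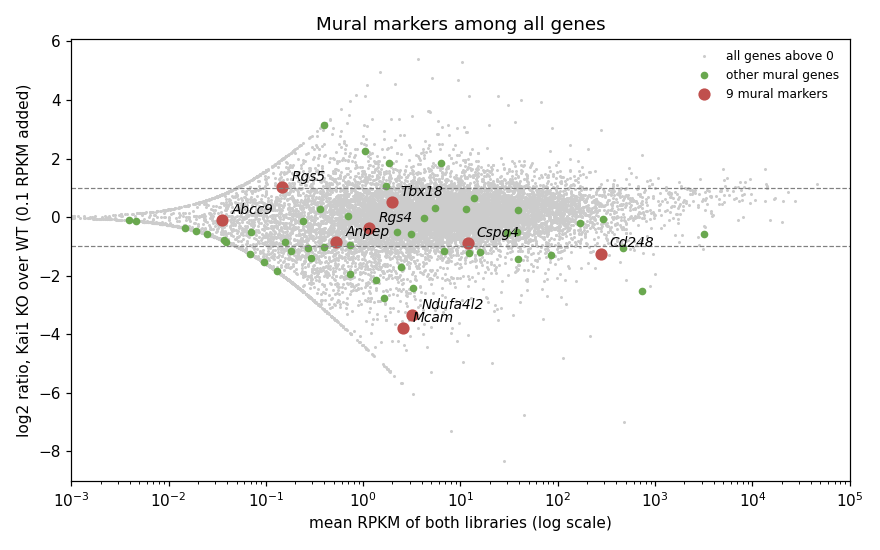
Log2 ratio of Kai1 KO over WT against mean RPKM (log axis) for all genes above 0 in grey, the 9 mural markers in red and 57 other mural genes, as far as they are above 0, in green; dashed lines mark 2-fold. Mcam and Ndufa4l2 lie well below the cloud of genes of their level, Cd248 lies just below -1 at the right, and Tbx18 and Rgs5 lie above 0.

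A wider list of other mural genes was read beside the 9. Of 58 listed, 57 were in the tables and 27 were expressed. Among these 27, 11 were more than 2-fold lower, 4 higher and 12 neither, with a median log2 ratio of -0.55. Among all expressed genes 7.81% were lower and 7.98% higher, and no set test was made. Some contractile genes were among the lower ones and others were not. Myl9, the regulatory light chain of smooth muscle myosin, was at 1259 RPKM in WT and 217 in Kai1 KO, a log2 ratio of -2.53. Myh11, the heavy chain that marks mature smooth muscle, was at 2.96 and 0.346 RPKM. Acta2 had a log2 ratio of -0.57 and Actg2, a smooth muscle actin, of -0.21. Smtn (smoothelin, a cytoskeletal protein of contractile muscle) was at 35.6 RPKM in WT and 42.5 in Kai1 KO, less than 2-fold higher.

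The 4 higher genes were Gja4, Nes, Pde5a and Foxd1. Gja4 was named by the rule of the largest ratios of a list, and the others after their values were seen. Gja4, a gap junction protein of arteries, was at 0.296 RPKM in WT and 1.79 in Kai1 KO, a log2 ratio of 2.26. Nes (nestin, an intermediate filament protein) was at 2.64 and 9.87 RPKM. The mural genes thus did not all differ in one direction. Of the 57, 10 were above 0 in the WT library alone and 1, Kcnj8, in the Kai1 KO library alone, and 8 were listed at 0 in both. Values at or near 0 were commoner in Kai1 KO over all symbols. There 35.1% of symbols lay below 0.00268 RPKM, whereas 29.3% lay below 0.00391 RPKM in WT. Some of the 10, such as Heyl and Kcnk3, had about 1 read in WT. These counts are therefore not read as a loss of mural genes.

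**Figure D4:**
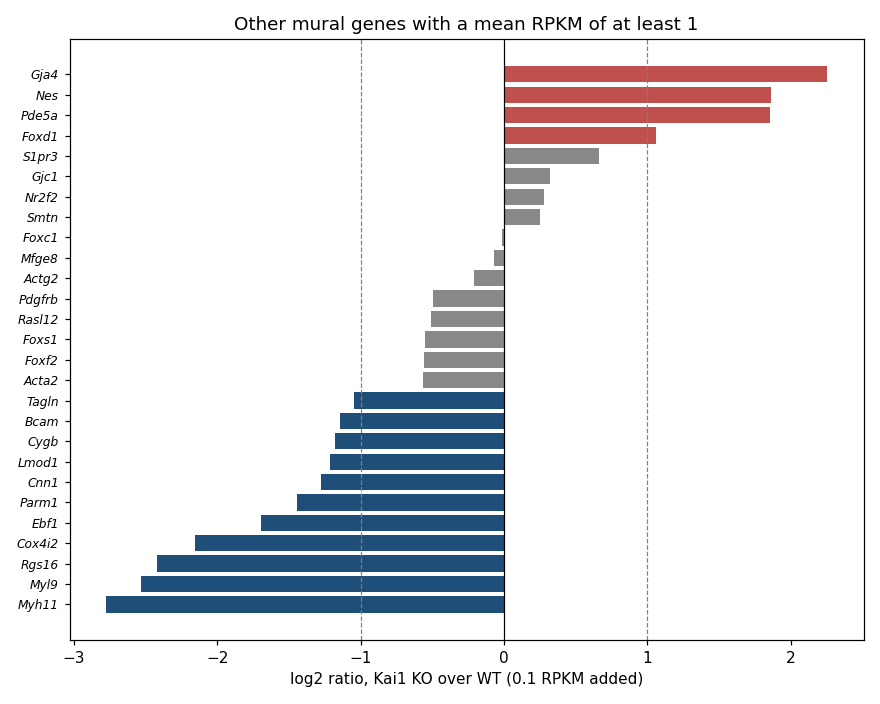
Log2 ratio of Kai1 KO over WT, with 0.1 RPKM added, for the 27 other mural genes that were expressed; bars start at 0, blue marks more than 2-fold lower, red more than 2-fold higher and grey neither. The 11 blue bars end with Myh11 at -2.78, and the 4 red bars begin with Gja4 at 2.26.

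Markers of the other cell types that a culture of the vessel wall could hold also differed between the libraries, and their counts are to be read against the 7.81% of all expressed genes that were lower and the 7.98% that were higher. The summed RPKM of 13 smooth muscle contractile genes was 7191 in WT and 3927 in Kai1 KO, and of the 10 expressed ones 6 were lower and 0 higher. The 16 adventitial fibroblast markers summed to 3556 and 1751 RPKM, with 6 of 12 lower and 2 higher. Mfap5, a microfibril protein, was at 194 and 43.6 RPKM in this list, Pi16 was at 1.98 and 0.384, and Ly6a (Sca1) was at 1354 and 569, whereas Cd34 (1.44 and 7.76) and Scara5 (0.517 and 3.74) were higher in Kai1 KO. Since fibroblast markers and the markers Cd248 and Cspg4 were lower in the same library, the part that the cell makeup of the cultures had in the differences was not tested.

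The 16 leukocyte and macrophage markers summed to 41.0 RPKM in WT and 19.5 in Kai1 KO, and of the 5 expressed ones 4 were lower and 1 higher. Fcer1g, Tyrobp and Csf1r, genes of myeloid cells, were at 11.3, 10.4 and 11.7 RPKM in WT and at 2.47, 2.37 and 2.66 in Kai1 KO, and Cd14 was at 1.98 and 10.3. C1qa, C1qb, Aif1 and Emr1 were listed at 0 in both. Endothelial markers, which matter for Mcam because endothelium also makes it, were low. The 16 summed to 4.995 and 8.62 RPKM, of which Egfl7 alone (a secreted protein of vessels) had 2.28 and 7.39 and Flt1 (a VEGF receptor) 1.23 and 1.01. Cldn5, Emcn, Esam, Robo4 and Sox17 were listed at 0 in both libraries, and 12 of the 16 were listed at 0 in Kai1 KO. In that library 35.1% of all symbols lay below 0.00268 RPKM. Pecam1, Tek, Erg and Kdr, which define endothelium, were at 0.413, 0.409, 0.302 and 0.122 RPKM in WT, from about 40, 54, 28 and 21 reads, and were listed at 0 in Kai1 KO. Over all 16, without a filter, 4 were more than 2-fold lower and 1 higher, against 9.29% and 5.96% of all symbols. Pecam1, Tek, Erg and Kdr, named here after their values were seen, were thus lower in the same library as Mcam. Egfl7 was higher in that library and accounted for the higher sum of all 16. It made up 2.28 of 4.995 RPKM in WT and 7.39 of 8.62 in Kai1 KO. The part of endothelial RNA in the level of Mcam was not tested.

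Mesothelial and epicardial markers, relevant to Tbx18, were mixed. The 10 summed to 102 and 126 RPKM, with Krt19 (a keratin) at 29.3 and 91.3, Upk3b at 0.975 and 2.81 and Upk1b at 69.1 and 30.5, while Wt1 was listed at 0 in WT and at 0.0259 in Kai1 KO. The 12 Schwann cell and melanocyte markers summed to 20.6 and 10.1 RPKM, mostly from S100b (13.7 and 3.18) and Tyr (5.57 and 5.28), with Cdh19, Foxd3 and Dct listed at 0 in both. The 11 cardiac and skeletal muscle markers summed to 82.0 and 135 RPKM, of which Tnnt2 had 62.6 and 132 and Acta1 15.3 and 0.888, whereas Myh6, Myh7, Myod1 and Pax7 were listed at 0 in both. What part any of these cells had in the marker levels was not tested.

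The scale of the libraries moved all ratios together. Gapdh, an enzyme of glycolysis often used as a reference, was at 4238 RPKM in WT and 5997 in Kai1 KO. Scaling to Gapdh shifted the median log2 ratio of the expressed genes by -0.49, and scaling to equal sums by -0.48. The balance of all expressed genes shifted with it, from 786 more than 2-fold lower and 803 higher as deposited to 1856 and 278 when scaled to Gapdh and 1822 and 287 when scaled to equal sums. In each setting 7 markers were below 0 and Tbx18 and Rgs5 above 0. Tbx18 was near 0 after these scalings and above the median of the expressed genes. Cspg4 passed 2-fold under these scalings, with log2 ratios of -1.38 and -1.37.

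**Figure D5:**
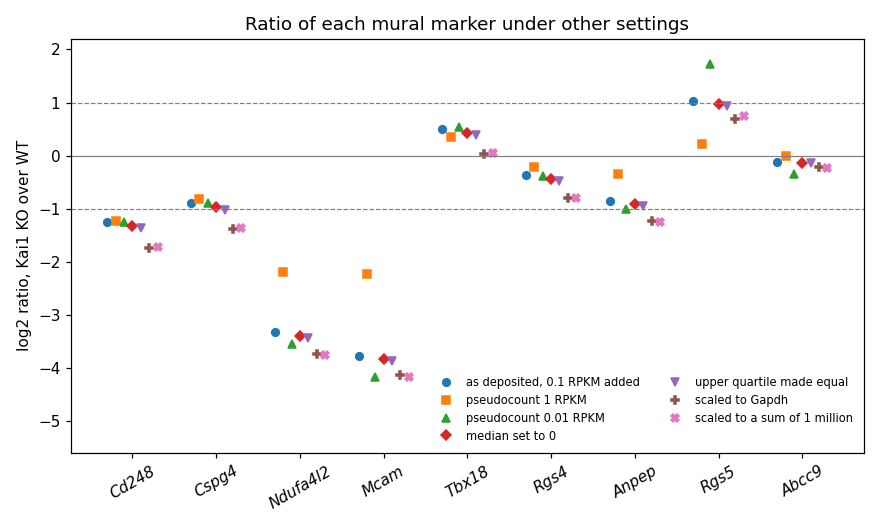
Log2 ratio of Kai1 KO over WT for each marker as deposited and under 6 other settings of the pseudocount or of the scaling of the libraries; dashed lines mark 2-fold. Mcam, Ndufa4l2 and Cd248 stay below -1 in all of them, whereas Tbx18 comes to 0.03 when scaled to Gapdh and Rgs5 to 0.21 with a pseudocount of 1 RPKM.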

How the data were processed

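RNA of cultured perivascular cells was sequenced in 2 libraries, 1 WT and 1 Kai1 KO, with no replicates. Per the labels and the study's methods, the authors aligned the reads to mm9 (NCBI37) with TopHat2 2.0.9 and Bowtie. They deposited 1 RPKM value per RefSeq gene and library, and Cufflinks is also among the tools named. Strandedness is not given in the sources used here, and the labels and the methods give different serum concentrations. The authors' Cuffdiff comparison was not recomputed.

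In each table of 20462 rows, 38 rows without a symbol were left out, repeated symbols (153) were averaged, and 26 symbols had been turned into dates, none of them a marker. The log2 ratio was taken with 0.1 RPKM added, and counts over all genes used a mean RPKM of at least 1 and a 2-fold difference. The markers and all lists were chosen with earlier results of these data known. Genes named were the 9 markers, fixed relatives and partners, Cd82, Gapdh, Y-linked genes added later, and from each list the 4 largest ratios and 2 highest levels at a mean RPKM of at least 1. Others named are single defining or absent genes, chosen after their values were seen.

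Read numbers were fitted on low values of genes with 1 transcript of over 800 bases, less a fragment length of 200 bases. With the fitted steps, 80.4% of 490 low values in WT and 77.9% of 307 in Kai1 KO lay within 0.15 of a whole read, so read numbers are approximate. Intervals are 95%, exact Poisson for levels and exact conditional binomial for ratios, and ignore the uncertainty of the read estimate. Positions and overlaps of whole gene spans are from GENCODE on NCBI37, and promoter windows from RefSeq. The scripts were tested on simulated data. Alternatives were other pseudocounts, filters, scalings, rows of repeated symbols and transcript lengths. Python 3.11.15, numpy 2.4.6, pandas 2.3.3 and scipy 1.17.1 were used.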

Additional observations from a re-analysis of the deposited data

How the results depend on the processing

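No paired analysis was possible because the groups hold 1 library each. For the same reason no library could be left out either. The sign of the log2 ratio held for all 9 markers in every setting tried. The balance over all expressed genes did not hold, with 786 lower and 803 higher as deposited against 904 lower and 657 higher once the median was centred on 0, and 977 lower and 594 higher at equal upper quartiles. The count of markers more than 2-fold lower, 3 as deposited, was 5 when the libraries were scaled to Gapdh and 5 when scaled to equal sums, where Cspg4 and Anpep were added. The count of markers more than 2-fold higher, 1 as deposited (Rgs5), was 0 with a pseudocount of 1 RPKM, with the median set to 0, with upper quartiles made equal, and when scaled to Gapdh or to equal sums. Of the other mural genes, 19 were lower with no filter and 7 with a filter at 5 RPKM, against 11, and 1 was higher with that filter, against 4. Over all genes, 1856 were lower and 278 higher when scaled to Gapdh, 1822 and 287 when scaled to equal sums, 1878 and 1205 with no filter, and 350 and 511 with a filter at 5 RPKM. Of 72 log2 ratios of single markers recomputed, 12 moved by more than the distance from the middle of the counting interval to its end. A setting without a pseudocount was chosen after seeing the data. With the shortest annotated transcript, 7 of 18 read estimates moved, those of Rgs5, Rgs4, Mcam and Abcc9. Depth limits Rgs5 and Abcc9 most.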

Other observations

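The genes next to the markers on the chromosome, chosen after the marker values were seen, were read in the same way. The 2 nearest genes on each side with a mean RPKM of at least 1 gave 33 distinct genes, including the marker Rgs4 as a neighbour of Rgs5. Of these 33, 3 were more than 2-fold lower and 0 higher, with a median log2 ratio of 0.14. Of all genes at that level 7.81% were lower and 7.98% higher, so the lower share of the neighbours was near the background. The 4 neighbours of Mcam had log2 ratios between -0.80 and 0.31, with C1qtnf5, a secreted protein of the complement C1q family, at 217 RPKM in WT and 124 in Kai1 KO. The 4 neighbours of Ndufa4l2 lay between -0.21 and 0.48, and those of Cd248 between -0.16 and 0.26. Beside Cspg4, Lingo1, a membrane protein best known from neurons, was at 14.8 RPKM in WT and 3.47 in Kai1 KO, a log2 ratio of -2.07. Beside Abcc9, Ldhb, a subunit of lactate dehydrogenase, was at 36.4 RPKM in WT and 9.60 in Kai1 KO.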
